A study of Homo sapiens with 6 samples.

Results

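The genes described here are 10 immediate early transcription factors of antigen receptor signalling, namely the nuclear receptors NR4A1, NR4A2 and NR4A3, the zinc finger factors EGR1, EGR2 and EGR3, and the AP-1 subunits FOS, FOSB, JUN and JUNB. They were taken by name from the 58735 genes of the deposited tables, and each name matched 1 gene. No measured value entered the rule, but the list was chosen with earlier results of these data known. Messages with a poly(A) tail were sequenced from MOLT-3, a long-cultured human line derived from acute lymphoblastic leukaemia of T cells (T-ALL). The solvent DMSO was given in 3 libraries. The other 3 came from treatment with compound E, which blocks gamma-secretase, the protease that frees the active intracellular part of NOTCH receptors. Both groups are the same cell line, with no other treatment in the labels, and dose and duration were not stated in the material used. Nothing in the labels ties the replicates to separate cultures, so the p-values reflect the spread among these samples alone, and that spread may be technical.

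Immediate early genes are transcribed within minutes of a stimulus from factors already present in the cell, and their messages are short-lived. In T cells and thymocytes, signals from the T-cell receptor reach them through RAS and the ERK kinases, calcium and protein kinase C, which act on serum response factor (SRF), CREB, MEF2 and NFAT at their promoters. NR4A and EGR levels are widely read as a record of how strongly that receptor has signalled. FOS and JUN proteins pair as AP-1, a dimer whose composition sets which genes it activates.

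Total counts were 17316138 to 19845114 per library, and CPM below are counts scaled to the library total after TMM normalisation. All 15 markers of T-ALL cells checked, CD3E, CD7 and RAG1 among them, exceeded 1 FPKM (counts per length and library size) in every library, and so did 2 of 20 markers of other cell types, CD79A and NKG7. PAX5, MS4A1, MPO, HBB, COL1A2 and DCN had 0 counts in every library. Summed over the T-ALL markers, the level was 1490 to 1510 FPKM with DMSO and 1520 to 1550 FPKM with compound E. Within that sum RAG1 went from 69.3 to 202 FPKM and CD7 from 41.1 to 24.9 FPKM, and the part of this in the results below was not tested. In bulk RNA, fewer cells of a type and less RNA per cell cannot be told apart.

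Of the 10 genes, 6 were called higher with compound E, NR4A1, NR4A3, EGR1, EGR3, FOS and JUNB, and 1 was called lower, JUN. FOSB was tested and did not pass, and NR4A2 and EGR2 had too few reads to be tested. Calls are from edgeR's quasi-likelihood test at a Benjamini-Hochberg adjusted p under 0.05 over 16926 tested genes, of which 18.9% were called higher and 19.4% lower. The rises of NR4A1, NR4A3, EGR1 and EGR3 were at least 2-fold, a size and direction shared by 1.2% of tested genes, and 0 of the 10 fell that far, as 2.63% of tested genes did. The same 6 genes had every compound E library above every DMSO library, and JUN had the opposite order. Among all tested genes 23.3% were separated upwards and 23.5% downwards, 46.8% in all. The filter on low counts asked for about 0.538 CPM in 3 libraries of either group. NR4A3 and EGR3 had 1 and 2 DMSO libraries at that level, so both passed with the help of compound E libraries. A gene placed like NR4A3 could hardly enter the test without a difference, while one placed like EGR3 could.

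**Figure D1:**
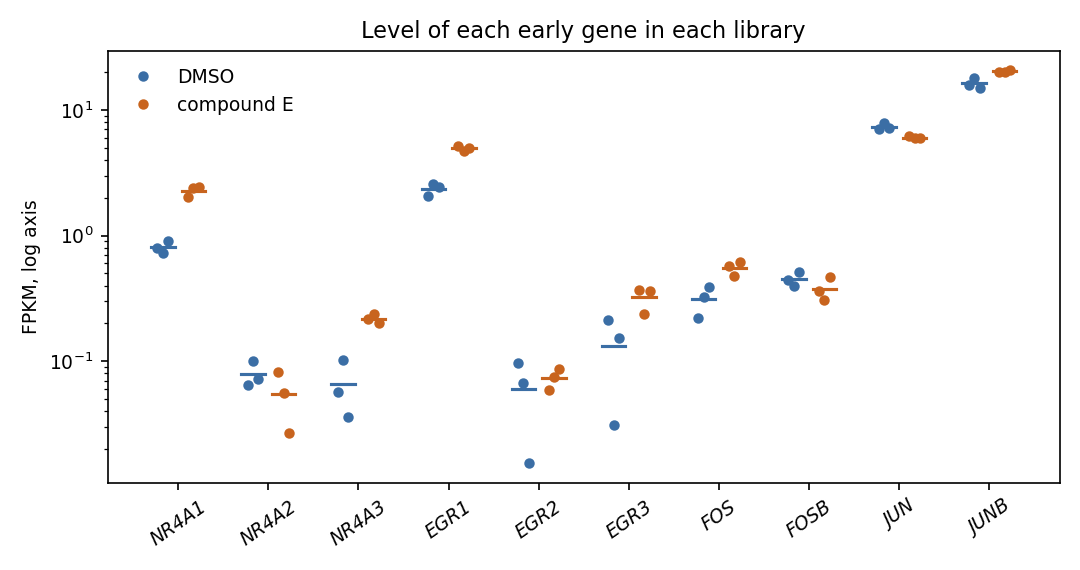
Level of the 10 genes in FPKM on a log axis, with 1 point per library and a line at the mean of the 3 libraries of a group. JUNB and JUN lie highest in both groups, and the groups of NR4A1 and EGR1 lie well apart.

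NR4A1, also called NUR77, is an orphan nuclear receptor that binds DNA without a known hormone and is induced by T-cell receptor ligation. It stood at 5.91, 5.35 and 6.65 CPM with DMSO, and with compound E at 14.8, 17.4 and 17.8 CPM. Every compound E library was more than 2-fold above every DMSO library, and the SD within each group was 10.9% of the mean with DMSO and 9.84% with compound E. The rise was 2.80-fold, a log2 fold change of 1.48 ± 0.105 (SE, edgeR, adjusted p = 6.83e-15). NR4A1 (ENSG00000123358) lies on chromosome 12 at 52022832 to 52059507 of GRCh38, plus strand.

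NR4A3, or NOR1 (ENSG00000119508, chromosome 9, 99821855 to 99866891, plus strand), is the close relative that shares NR4A1's DNA site. It was read 7, 13 and 4 times with DMSO and 25, 27 and 24 times with compound E, so the groups were separate although counts were low. The rise was 3.21-fold, from 0.417 ± 0.218 to 1.38 ± 0.110 CPM (SD over 3 libraries each), with a log2 fold change of 1.68 ± 0.353 (SE, edgeR, adjusted p = 1.72e-04). NR4A2, or NURR1 (ENSG00000153234, chromosome 2, 156324432 to 156342348, minus strand), the member best known from dopamine neurons, had 5, 8 and 5 counts with DMSO and 6, 4 and 2 with compound E. Its groups overlapped. In an edgeR fit without the filter NR4A2 had a log2 fold change of -0.53 ± 0.628 (SE, adjusted p = 0.625). Summed over the 3 genes, NR4A messages went from 0.955 ± 0.0479 to 2.54 ± 0.202 FPKM (SD over 3 libraries each), and NR4A1 made up 84.9% of that sum with DMSO and 89.3% with compound E.

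The bases before the start of NR4A3 are shown because they hold 4 copies of the CRE half-site, the core recognised by CREB and its relatives (TGACG, or CGTCA on the other strand), in capitals. RefSeq's promoter table for GRCh38.p14 held 8 of the 10 genes, with 11 start sites in all, and the 250 bases upstream of each were searched on both strands. NR4A3, chr9:99821635-99821884, plus strand, 250 bases 5′ to 3′, follows.
NR4A3: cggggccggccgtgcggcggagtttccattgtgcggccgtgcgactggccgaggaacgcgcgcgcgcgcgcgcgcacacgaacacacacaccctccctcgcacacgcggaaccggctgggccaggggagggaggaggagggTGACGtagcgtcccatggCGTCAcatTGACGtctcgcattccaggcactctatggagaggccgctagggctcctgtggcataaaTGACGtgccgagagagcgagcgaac
The copies begin 109, 91, 83 and 25 bases before the start. A CRE half-site occurs in 21.2% of the 35116 promoter windows of the table. The windows before the NR4A1 starts in the table, at chr12:52022582-52022831 and chr12:52037465-52037714, held 0 matches to any motif searched. The leading GENCODE transcript of NR4A1 starts farther downstream, outside the table, and its promoter was not searched.

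EGR1 is a zinc finger activator induced through SRF and its ETS partners, and it was the most abundant EGR gene. EGR1 stood at 6.58, 8.12 and 7.69 CPM with DMSO and at 16.2, 14.7 and 15.8 CPM with compound E. The lowest compound E library was well above the highest DMSO library. The rise was 2.09-fold, a log2 fold change of 1.06 ± 0.0985 (SE, edgeR, adjusted p = 1.27e-11). EGR1 (ENSG00000120738) lies on chromosome 5 at 138465490 to 138469315, plus strand.

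EGR3 (ENSG00000179388), which acts with EGR1 in thymocyte selection and with EGR2 in holding back activated T cells, was read 20, 3 and 13 times with DMSO and 33, 21 and 33 times with compound E. The groups were separate by a narrow margin, with DMSO replicate 1 next to compound E replicate 2, and DMSO replicate 2 lay far below the others. The rise was 2.45-fold, a log2 fold change of 1.29 ± 0.353 (SE, edgeR, adjusted p = 0.00322). EGR3 lost its call when DMSO replicate 2 was left out, at a log2 fold change of 0.80 and an edgeR adjusted p of 0.0591. EGR2 (ENSG00000122877, chromosome 10, 62811996 to 62919900, minus strand), a factor of myelinating cells and of T-cell anergy, had 7, 5 and 1 counts with DMSO and 4, 5 and 6 with compound E, and its groups overlapped. Without the filter the log2 fold change of EGR2 was 0.25 ± 0.647 (SE, edgeR, adjusted p = 0.853). The summed EGR level went from 2.55 ± 0.141 to 5.34 ± 0.313 FPKM (SD over 3 libraries each), with EGR1 at 92.5% and 92.6% of it.

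EGR1 and EGR2 are set side by side because the 2 windows printed hold the same kinds of element while EGR1 messages were far more abundant. Capitals mark CArG boxes, the binding motif of SRF (CC, then 6 bases that are A or T, then GG), and CRE half-sites. The windows are chr5:138465229-138465478, plus strand, for EGR1 and chr10:62816367-62816616, minus strand, for the start of EGR2 that lies nearest its coding part.
EGR1: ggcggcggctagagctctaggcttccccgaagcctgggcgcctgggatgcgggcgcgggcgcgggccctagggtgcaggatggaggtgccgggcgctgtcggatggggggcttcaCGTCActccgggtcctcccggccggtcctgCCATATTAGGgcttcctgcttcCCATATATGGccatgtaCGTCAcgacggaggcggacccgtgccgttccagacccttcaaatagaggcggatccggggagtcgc
EGR2: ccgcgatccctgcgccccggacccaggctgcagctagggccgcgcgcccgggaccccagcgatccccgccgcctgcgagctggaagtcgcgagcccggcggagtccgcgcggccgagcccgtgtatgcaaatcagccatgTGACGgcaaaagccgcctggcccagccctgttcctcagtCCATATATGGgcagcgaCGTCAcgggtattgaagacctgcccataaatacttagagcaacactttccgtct
The EGR1 window held 2 CArG boxes, CCATATTAGG and CCATATATGG, 105 and 83 bases before the start, and the EGR2 window held 1, CCATATATGG, 71 bases before. Both held 2 CRE half-sites. The windows before the other EGR2 starts, at chr10:62818776-62819025 and chr10:62819168-62819417, held 0 matches to any motif searched. A CArG box occurs in 1.16% of the 35116 windows of the table, and among the 8 genes searched only EGR1 and EGR2 had one within these 250 bases. Bases farther upstream were not searched in any gene, FOS included. In the deposited FPKM, EGR1 stood at 2.08 to 2.56 with DMSO and EGR2 at 0.0155 to 0.0976.

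FOS (ENSG00000170345, chromosome 14, 75278774 to 75282230, plus strand), the prototype of the FOS family, cannot pair with itself and binds DNA only with a JUN partner. It was read 14, 21 and 22 times with DMSO and 34, 28 and 38 times with compound E, so that all compound E libraries were higher. The rise was 1.78-fold, from 1.02 ± 0.275 to 1.81 ± 0.239 CPM (SD over 3 libraries each), with a log2 fold change of 0.84 ± 0.267 (SE, edgeR, adjusted p = 0.0114). FOS lost its call without DMSO replicate 1 (edgeR adjusted p = 0.081), without compound E replicate 3 (0.054) and with DESeq2 on all libraries (0.0578). FOSB, the relative known for its long-lived truncated form in neurons (ENSG00000125740, chromosome 19, 45467995 to 45475179, plus strand), had 48, 44 and 50 counts with DMSO and 37, 31 and 49 with compound E. Its groups overlapped, and the log2 fold change of FOSB was -0.25 ± 0.207 (SE, edgeR, adjusted p = 0.368).

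JUN (ENSG00000177606, chromosome 1, 58780788 to 58784327, minus strand), the AP-1 subunit that can pair with itself and drives its own promoter, was the only gene of the 10 called lower. It stood at 25.0, 28.2 and 25.5 CPM with DMSO and at 21.9, 21.1 and 21.3 CPM with compound E, with the groups apart. The fall was small, a log2 fold change of -0.30 ± 0.066 (SE, edgeR, adjusted p = 3.84e-04), or 1.23-fold. JUNB (ENSG00000171223, chromosome 19, 12791496 to 12793315, plus strand), a weaker activator that often counters JUN, stood at 29.2, 33.0 and 27.6 CPM with DMSO and at 36.8, 36.8 and 37.7 CPM with compound E. The rise was of about the same size, 1.24-fold, a log2 fold change of 0.31 ± 0.0594 (SE, edgeR, adjusted p = 5.58e-05). The DMSO libraries of JUNB varied by 9.14% of their mean and the compound E libraries by 1.44%. JUNB shares 259 of its 1820 exon bases (14.2%) with HOOK2 on the opposite strand, and whether reads were assigned by strand was not stated, so reads from the shared stretch cannot be told apart. HOOK2 had a log2 fold change of -0.09 ± 0.0616 (SE, edgeR, adjusted p = 0.277).

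**Figure D2:**
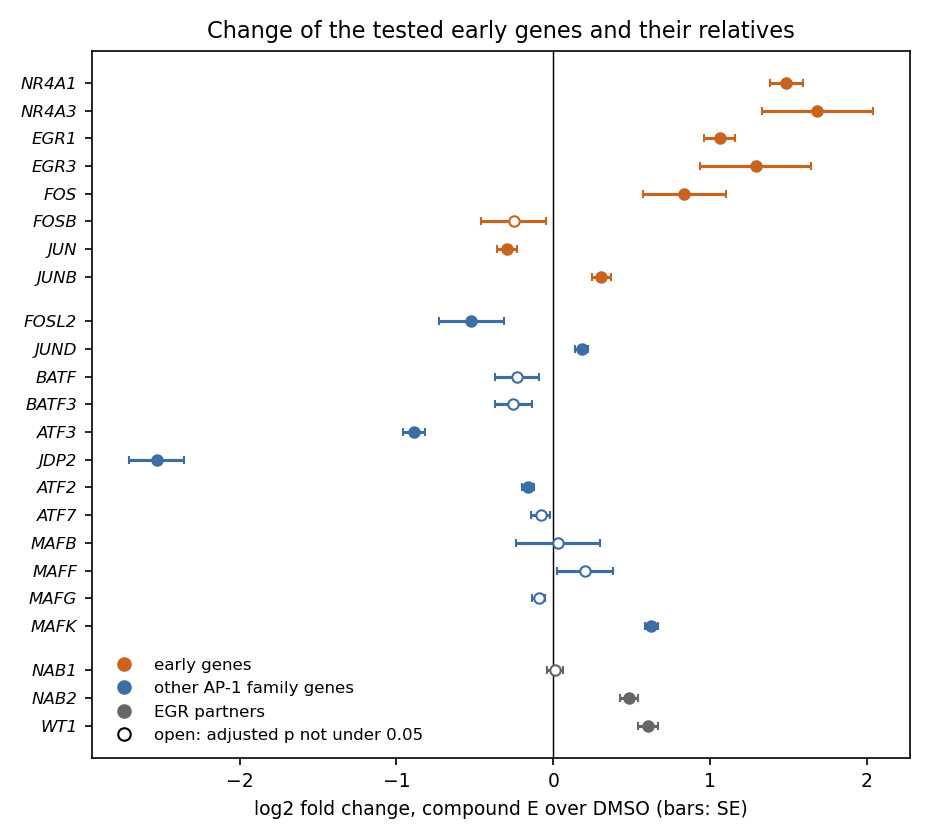
Log2 fold change of compound E over DMSO with its standard error for the 8 tested early genes, 12 other AP-1 family genes and 3 EGR partners. Filled points passed the edgeR test at an adjusted p under 0.05 and open points did not. NR4A1, NR4A3, EGR1, EGR3 and FOS lie to the right, JUN and JUNB at similar distances on either side of 0, and JDP2 farthest to the left.

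The window before JUNB, the most abundant of the 10 genes, is printed with the same motifs in capitals. It is chr19:12791236-12791485, plus strand.
JUNB: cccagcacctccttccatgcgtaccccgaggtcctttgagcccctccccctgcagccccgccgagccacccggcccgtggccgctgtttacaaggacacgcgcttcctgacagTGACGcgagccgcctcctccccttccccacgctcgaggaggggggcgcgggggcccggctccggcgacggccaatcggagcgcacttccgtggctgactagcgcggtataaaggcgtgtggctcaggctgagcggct
It held 1 CRE half-site, 137 bases before the start, and the windows of FOS and JUN held 1 each, 64 and 123 bases before. JUN also held TGACATCA, the site of JUN and ATF2 dimers, 67 bases before its start, a motif found in 2.37% of all windows of the table. FOSB held 1 CRE half-site 60 bases before its start. No window of the 8 genes held a full CRE (TGACGTCA), an AP-1 site (TGACTCA or its complement), an EGR site (GCGTGGGCG), the NR4A site AAAGGTCA or the core motif of RBPJ, the DNA-binding partner of NOTCH (GTGGGAA). These occur in 1.65%, 4.2%, 0.72%, 1.05% and 5.43% of all windows. GENCODE release 29 places some of these starts farther upstream, so that 250 of the 250 bases of the JUN window, 54 of the FOS window and 30 of the NR4A3 window lie within an exon of the gene itself. For JUN the motifs named are therefore upstream of the start by RefSeq and inside the transcript by GENCODE. The same holds for the NR4A3 copy that begins 25 bases before the start.

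Per length of annotated exon, the 10 genes spanned more than 2 orders of magnitude. That length covers all exons of a gene, 7295 bases for NR4A1 against 2678 in its leading transcript. The order below therefore depends on the length used. With DMSO the order of mean FPKM was JUNB at 16.3, JUN at 7.35, EGR1 at 2.36, NR4A1 at 0.81, FOSB at 0.452, FOS at 0.312, EGR3 at 0.132, NR4A2 at 0.0792, NR4A3 at 0.0654 and EGR2 at 0.0603. From EGR3 downwards each gene's libraries overlapped with those of the next. With compound E the order was JUNB at 20.3, JUN at 6.02, EGR1 at 4.94, NR4A1 at 2.27, FOS at 0.556, FOSB at 0.379, EGR3 at 0.323, NR4A3 at 0.217, EGR2 at 0.0733 and NR4A2 at 0.0548. There FOSB overlapped with EGR3, and EGR2 with NR4A2, while the other neighbours were separate. FOS and FOSB thus changed places, and NR4A2, ahead of NR4A3 and EGR2 with DMSO, came last with compound E.

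Ratios within a library do not depend on how libraries are scaled, although their level depends on the gene lengths used. JUNB over JUN, in FPKM, was 2.27, 2.27 and 2.10 with DMSO and 3.26, 3.40 and 3.45 with compound E. FOS over FOSB was 0.50, 0.818 and 0.755 with DMSO and 1.58, 1.55 and 1.33 with compound E. NR4A1 over EGR1 was 0.386, 0.283 and 0.372 with DMSO and 0.391, 0.508 and 0.485 with compound E. The 3 ratios were picked with their values in view. In each the groups did not overlap, by a narrow margin for NR4A1 over EGR1. The exact two-sided permutation p was 0.1 for each ratio and 0.1 after adjustment over the 3, the smallest p that 3 libraries against 3 allow.

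**Figure D3:**
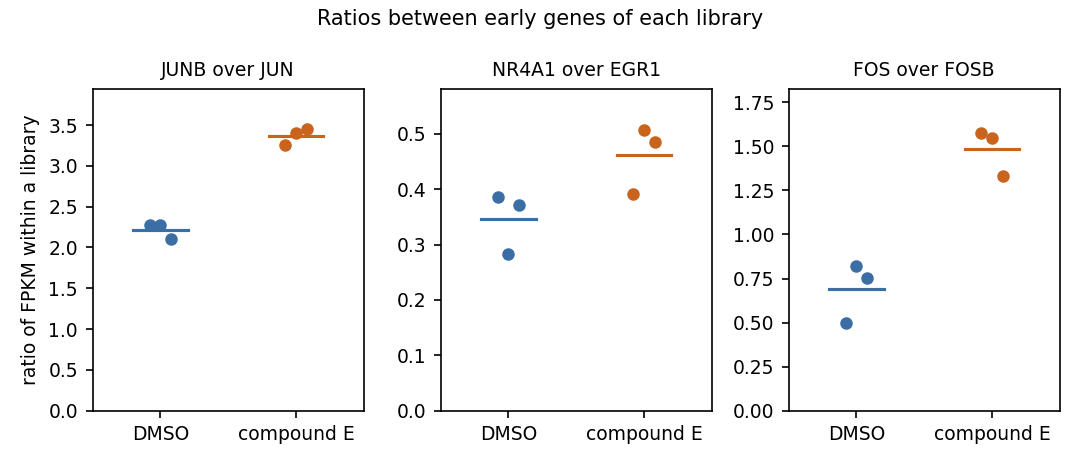
Ratio of the FPKM of 2 early genes within each library, with 1 point per library and a line at the group mean. JUNB over JUN and FOS over FOSB lie clearly higher with compound E, and NR4A1 over EGR1 is higher by less.

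Deviations of the early genes from their group mean were compared library by library. Of the 8 tested genes, compound E replicate 2 was the lowest of its group in 5 and compound E replicate 3 the highest in 4, with median deviations of -0.052 and 0.0622 in log2 CPM. Among the DMSO libraries replicate 2 was the highest in 4 genes and the lowest in 3. The widest single deviation was that of EGR3 in DMSO replicate 2, at -1.29 in log2 CPM.

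The remaining AP-1 family genes went both ways. Of 12 tested, 2 rose and 4 fell (16.7% and 33.3%, against 18.9% and 19.4% of all tested genes), with a median log2 fold change of -0.13 against -0.0034 over all genes. JDP2, a repressor that pairs with JUN proteins, fell 5.78-fold from 8.18 ± 0.578 to 1.41 ± 0.455 CPM, and ATF3, a stress-induced repressor, fell 1.85-fold from 27.9 ± 0.988 to 15.1 ± 0.419 CPM (SD over 3 libraries each). MAFK, a small MAF protein without an activation domain, rose 1.54-fold. JUND, the JUN protein of resting cells, rose 1.13-fold from 175 ± 13.2 to 199 ± 15.7 CPM (SD over 3 libraries each), with groups that overlapped, and lost its call with DESeq2 and with limma on FPKM. FOSL2 fell with a log2 fold change of -0.52, ATF2 with one of -0.16, and FOSL1 had only 6 and 20 counts in the DMSO and compound E groups.

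Per length, JUN family messages were far more abundant than FOS family messages. FOS, FOSB, FOSL1 and FOSL2 summed to 1.2 ± 0.184 FPKM with DMSO and 1.39 ± 0.106 FPKM with compound E. JUN, JUNB and JUND summed to 117 ± 8.52 and 132.5 ± 8.65 FPKM (SD over 3 libraries each), of which JUND made up 79.7% and 80.1%. Among the partners of the EGR factors NAB2, a corepressor that EGR factors themselves induce, rose 1.40-fold from 29.2 ± 1.97 to 40.7 ± 1.62 CPM, while NAB1 had a log2 fold change of 0.01 and did not pass. WT1, a zinc finger factor that binds EGR-like sites, rose 1.52-fold.

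Other immediate early genes were split, 13 of 35 tested higher and 9 lower (37.1% and 25.7%, against 18.9% and 19.4% of all tested genes). Their median log2 fold change was 0.15. The antiproliferative gene BTG2 rose 1.83-fold, and MYC, HES1 and the inhibitor of basic helix-loop-helix factors ID1 fell, with log2 fold changes of -0.84, -2.16 and -2.41. HES1 and MYC are direct NOTCH targets in T-ALL. DUSP1, a MAP kinase phosphatase named here after its values were seen, rose 2.00-fold from 10.4 ± 1.15 to 20.9 ± 2.12 CPM (SD over 3 libraries each). The other DUSP genes of this list went both ways. DUSP2 and DUSP5 rose with log2 fold changes of 0.33 and 0.85, and DUSP6 fell with one of -0.63.

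Genes known to follow NR4A or EGR factors in T cells went both ways, with a median log2 fold change of 0.05. Of 20 tested, 7 were higher and 6 lower (35% and 30%, against 18.9% and 19.4% of all tested genes). The diacylglycerol kinase DGKA rose 1.37-fold. The cytokine gene IL4, with 588 and 36 counts in the DMSO and compound E groups, fell by 3.99, the amino acid transporter SLC1A4 by 1.5 and the deacetylase HDAC9 by 1.86 on the log2 scale. PDCD1, which encodes the inhibitory receptor PD-1 and was picked out after its values were seen, rose 2.34-fold from 6.81 ± 1.46 to 16.0 ± 1.26 CPM (SD over 3 libraries each).

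Upstream of the early genes, members of each list moved in both directions. Of 28 tested receptor-proximal genes 16 rose and 9 fell, with a median log2 fold change of 0.09. These are 57.1% and 32.1%, against 18.9% and 19.4% of all tested genes. Small changes passed where counts were high, as with LCK, at 621 CPM with DMSO and 1.05-fold lower with compound E. RASGRP1, the exchange factor that switches on RAS in response to diacylglycerol, rose 2.23-fold from 122 ± 3.22 to 273 ± 5.04 CPM (SD over 3 libraries each). The adaptor GRAP2 rose 1.58-fold, and the SRC family kinase FYN fell 1.43-fold. In a list of kinases and calcineurin subunits that also held HDAC7, 6 of 24 rose and 3 fell (25% and 12.5%). HDAC7, a class II deacetylase that represses MEF2 and NR4A1 in thymocytes, counted among the 6 and was 1.56-fold higher. MAPK14 was 1.24-fold higher and BRAF 1.23-fold lower. Of 21 tested activators at early gene promoters 7 rose and 3 fell (33.3% and 14.3%). MEF2A rose 1.68-fold, NFATC3 1.37-fold and the coactivator EP300 1.11-fold, and NFATC1 fell 1.25-fold. SRF had a log2 fold change of 0.02 and did not pass, and neither did ELK1, at -0.09.

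The genes whose pattern over the 6 libraries was most like that of 1 gene per family were found among 10116 to 10117 protein-coding genes that averaged 5 CPM or more, by the root mean square difference of centred log2 CPM. The gene taken from each family had the highest mean FPKM over all 6 libraries, which for FOS rests on the compound E libraries, since FOSB was higher with DMSO. For NR4A1 they were the smooth muscle actin gene ACTG2 (difference 0.125), the recombinase gene RAG1 (0.126) and RCAN1, an inhibitor of calcineurin (0.131). For EGR1 they were the potassium channel gene KCNH2 (0.0446), RGS12 (0.0578) and STRA6 (0.0636), and for FOS the cytokine signalling suppressor SOCS1 (0.154), RTP5 (0.163) and the sugar transporter SLC2A6 (0.184). JUNB was closest to NDUFC2 (0.0292), PTGER4 (0.0375) and ZNF629 (0.0377). The measure includes the difference between the groups, so genes with a like change score as alike.

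Genes beside the 10 moved both ways. Of 34 tested protein-coding genes within 100000 bases, 8 rose and 10 fell, where 18.9% and 19.4% of all tested genes did. Beside NR4A1, GRASP rose with a log2 fold change of 0.38 and ATG101 with one of 0.21, and ACVR1B, at -0.05, did not pass. Beside EGR1, HSPA9 fell by 0.37 and KDM3B rose by 0.15 on the log2 scale. PRDX2 (0.19) and TNPO2 (0.26) rose and DNASE2 (-0.42) and MAST1 (-0.33) fell beside JUNB. BIN3 and CCAR2 rose by 0.18 and 0.19 and PDLIM2 fell by 0.19 on the log2 scale beside EGR3. Around FOSB, OPA3 rose by 0.14, and ERCC1, PPP1R13L and PPM1N fell by 0.14, 0.50 and 0.50. OPA3 lost its call in 9 of 18 alternative fits and ERCC1 in 4. ADO, beside EGR2, fell by 0.22, GPD2, beside NR4A2, by 1.24 and STX17, beside NR4A3, by 0.17, while MYSM1, the tested neighbour of JUN, did not pass. GPD2 rested on 44 and 18 counts in the DMSO and compound E groups and lost its call in 7 of 17 alternative fits. STX17 lost it in 9 of 18 and ATG101 in 5 of 18. FOSB lies within the span of ERCC1 on the other strand but shares 0 exon bases with it, and NR4A1 shares 754 exon bases with AC025259.3, which had 3 and 9 counts in the DMSO and compound E groups.

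In GENCODE release 29 the leading transcript has 1 exon in JUN and JUNB, 2 in EGR1, EGR2 and EGR3, 4 in FOS and FOSB and 8 or 9 in the NR4A genes, against a median of 8 over all protein-coding genes. The AU-rich heptamer TATTTAT, a mark of unstable messages, was present in the 3′ UTR of 5 of the 10 genes, and in 29.6% of 18445 genes with such a UTR of at least 50 bases. FOS had 2 copies, as did NR4A3, and NR4A2, FOSB and JUN had 1 each. NR4A1, EGR1, EGR2, EGR3 and JUNB had 0. Of the 6 genes that rose, NR4A3 and FOS thus held copies and the other 4 held 0.

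**Figure D4:**
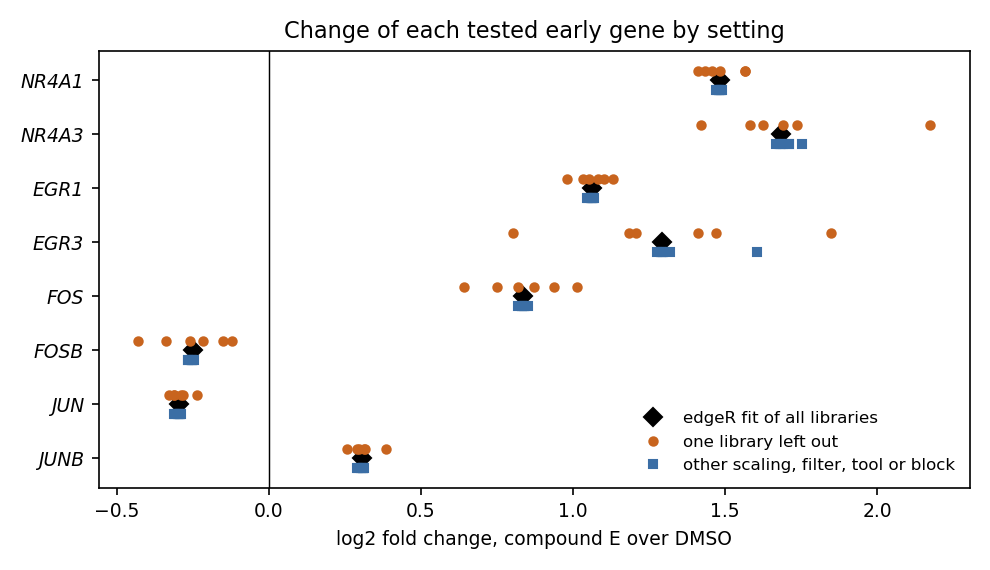
Log2 fold change of each tested early gene in the edgeR fit of all libraries (diamond), with 1 library left out (circles) and under other scalings, filters, tools or the replicate block (squares, limma on FPKM not shown). NR4A1, EGR1, JUN and JUNB stay close to their value, and EGR3 and NR4A3 spread most, between 0.80 and 1.85 and between 1.42 and 2.17.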

How the data were processed

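RNA was sequenced from 6 MOLT-3 libraries, 3 with DMSO and 3 with compound E, grouped by the titles in the labels. Per the submitters' processing notes the tools were HISAT2 2.0.5, featureCounts 1.5.0-p3 and DESeq2 1.16.1, named with no role or order. Build, annotation, strand use and treatment of multiply mapped reads were not stated in the material used. The deposited table of whole-number read counts per gene was not normalised by the authors. The FPKM table deposited by the authors holds those counts divided by gene length and by 1 divisor per library. All 58735 genes had the start, end and strand of GENCODE release 29, so coordinates are on GRCh38.

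Counts were fitted in R 4.3.3 with edgeR 4.0.16 (filterByExpr, TMM, quasi-likelihood F-test, treatment as the only term), with Benjamini-Hochberg adjustment across 16926 tested genes. The standard error is the log2 fold change divided by the square root of F. Log2 values were computed here and none were deposited. The common dispersion was 0.00074. Replicates differed by more than sampling noise (chi-square per degree of freedom 1.65 to 2.75 over genes). The highest values, 2.66 and 2.75, were those of compound E replicate 3 against replicates 1 and 2 of its group. The other pairs gave 1.65 to 1.89. Each replicate counted as 1 sample, but this spread does not show that replicates were separate cultures. The precision of a gene is set by its counts. The script was tested on counts simulated at the common dispersion. It recovered 44% of 1.2-fold, 64% of 1.5-fold, 86% of 2-fold and 94% of 4-fold changes, and 4% of its calls were false.

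The 10 genes and all lists were chosen with earlier results of these data known. The text names the 10 genes, up to 4 called genes with the smallest p per list, the 3 genes most like the tested gene of each family with the highest mean FPKM over all 6 libraries, and called or overlapping neighbours. Other genes named were picked after their values were seen. List symbols missing from the table were matched through RefSeq synonyms (MRTFA and MRTFB). Promoter sequences are RefSeq's for GRCh38.p14. Alternatives were other scalings, filters, DESeq2 1.42.0, limma 3.58.1 (voom, and log2 FPKM with pseudocounts of 1 and 0.1), the replicate block, protein-coding genes alone and each library left out. Figures used matplotlib 3.10.9. Reads were not used here, and 1 gene that the rule names is not reported here.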

Additional observations from a re-analysis of the deposited data

How the results depend on the processing

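Over 18 alternatives NR4A1, EGR1, JUN and JUNB kept direction and call, and so did NR4A3 in the 17 that tested it. EGR3 kept its call in 14 of 17 and FOS in 13 of 17. EGR3 lost it with limma on FPKM at a pseudocount of 0.1 (adjusted p = 0.0662) and without a filter (0.15), and without DMSO replicate 2. FOS lost it with DESeq2, with limma on unfiltered FPKM (adjusted p = 0.124), and without DMSO replicate 1 or compound E replicate 3. FOSB was called in 0 of 17. A filter of 5 CPM in 3 libraries left 4 of the 10 genes, of which 3 were called higher, since fewer genes were tested. Limma on unfiltered FPKM called 4002 genes in all, against 6484 in the reported fit, with 33506 genes tested; the cause of the difference was not tested. The count of the 10 called higher was 5 to 6 with each library left out, and the count called lower was 1 throughout. With the replicate block 6 were called higher, 1 lower and 6138 genes in all. Deviations of same-numbered samples had correlations of -0.0088, -0.0462 and -0.0501 over genes, and those of unlike number -0.0618 to 0.104. These values do not show whether equal numbers mark a shared batch or culture. Of the other genes chosen by the rule for named genes 55 were called, of which 43 kept the call in every alternative that tested them; among the others, OPA3 and STX17 lost it in 9 each, GPD2 in 7, ATG101 in 5 and ERCC1 and JUND in 4 each. The recomputation for genes and lists other than the 10 was added after seeing the data. In it 0 genes changed direction, and 12 list counts were marked as moved over all lists and alternatives. Among them, with DESeq2, the other AP-1 genes called higher were 1 instead of 2, and promoter activators 4 instead of 7. Counts of 1 to 8 per library for NR4A2 and EGR2 limit what can be said of them.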
